A study of Mus musculus with 8 samples.

Results

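Conventional dendritic cells carry antigen to T cells, and 9 genes that mark the cells of this kind that reside in lymph nodes were followed in tumor-draining lymph nodes after injection of a TLR-7/8 agonist into the tumor. The genes were Xcr1, Clec9a, Batf3 and Ly75 of the type 1 cells, Clec10a and Sirpa of the type 2 cells, and Flt3, Zbtb46 and Itgax, which both types use. Their probes were found by gene symbol, with aliases matched by gene identifier, and that search used no measured value. The genes, and the lists set beside them, were chosen with earlier results of these data known. A named probe was found for 7 of the 9, among 11487 genes with a named probe, and 10543 genes had a probe that was detected often enough to be tested. Flt3 and Itgax had no probe with a name in the annotation used and were not analysed here. The nodes came from female C57BL/6 mice that were 6 to 8 weeks old by the methods, each with a subcutaneous B16 melanoma of 30 to 40 mm2. The tumors of 4 mice received a single injection of 3M-052, an agonist of TLR-7 and TLR-8, those of another 4 mice received vehicle, and nodes were excised 4 days later. The strain, the tumor and the single injection are thus shared by both groups. The labels do not say which B16 subline was grown, and they name the RNA in one field as that of tumors and in the others as that of lymph nodes.

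Dendritic cells that reside in the node are seeded from the blood, and a second set arrives from the tissue through lymph vessels in a mature state. Type 1 cells need the transcription factors IRF8 and BATF3 and are known for presenting antigen from dead cells to CD8+ T cells. Type 2 cells rely on IRF4 among other factors and are known for priming CD4+ T cells. Few of the 9 genes are restricted to these cells: Sirpa is also made by macrophages, monocytes and neutrophils, Clec10a by macrophages, Ly75 by B cells, Batf3 by activated T cells and Zbtb46 by blood endothelium. The RNA was that of a whole node, in which fewer cells of a type and less RNA per cell cannot be told apart.

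The promoter windows of 4 genes are shown because their products sit at successive steps of the lineage: ZBTB46 marks all conventional dendritic cells, BATF3 is needed for type 1 cells, and CLEC9A and XCR1 are receptors on them. Each window is the 300 bases from 250 before to 50 after the start of the gene in RefSeq (GRCm38.p6), written 5′ to 3′ on the strand of the gene. Capitals mark matches to TGANTCA, the AP-1 site to which BATF factors bind with a JUN partner, or to GAGGAAG, a site of PU.1, on either strand. For Zbtb46 the window lies at the listed start. The letters just before that start resemble the end of an intron, so this window may not be a promoter.
Clec9a, chr6:129408612-129408911, plus strand: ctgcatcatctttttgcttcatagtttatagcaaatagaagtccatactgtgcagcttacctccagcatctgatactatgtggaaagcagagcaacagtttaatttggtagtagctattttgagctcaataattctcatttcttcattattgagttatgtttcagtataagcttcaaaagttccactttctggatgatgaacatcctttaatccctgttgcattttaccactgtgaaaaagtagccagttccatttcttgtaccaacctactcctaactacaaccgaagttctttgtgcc
Xcr1, chr9:123861980-123862279, minus strand: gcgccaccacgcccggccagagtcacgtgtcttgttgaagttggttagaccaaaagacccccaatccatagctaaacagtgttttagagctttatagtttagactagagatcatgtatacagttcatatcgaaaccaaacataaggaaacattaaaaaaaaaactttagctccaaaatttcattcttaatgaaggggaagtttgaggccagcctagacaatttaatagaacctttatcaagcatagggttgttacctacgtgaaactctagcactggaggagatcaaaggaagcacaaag
Batf3, chr1:191098164-191098463, plus strand: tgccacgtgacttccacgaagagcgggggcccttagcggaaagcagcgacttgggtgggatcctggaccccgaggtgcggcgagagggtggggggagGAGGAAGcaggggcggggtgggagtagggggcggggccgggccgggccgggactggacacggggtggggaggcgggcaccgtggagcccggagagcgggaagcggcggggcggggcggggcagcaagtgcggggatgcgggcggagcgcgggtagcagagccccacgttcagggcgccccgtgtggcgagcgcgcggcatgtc
Zbtb46, chr2:181424339-181424638, minus strand: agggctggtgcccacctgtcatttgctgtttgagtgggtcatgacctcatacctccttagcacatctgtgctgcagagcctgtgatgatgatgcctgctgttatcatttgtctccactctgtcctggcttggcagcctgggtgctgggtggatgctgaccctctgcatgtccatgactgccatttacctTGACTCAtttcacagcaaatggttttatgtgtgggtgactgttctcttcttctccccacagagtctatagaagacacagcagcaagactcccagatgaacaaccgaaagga

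Zbtb46 held 1 AP-1 match, TGACTCA at bases -61 to -55 from the start, and Batf3 held 1 PU.1 match, GAGGAAG at -153 to -147. Neither the Clec9a nor the Xcr1 window held a match. A window was given for 7 of the 9 genes, and of the other 3, Itgax held an AP-1 match, TGAGTCA at -56 to -50, while Ly75 and Flt3 held none. Over 32851 windows of this length, 7.8% held the AP-1 letters and 13.6% the PU.1 letters. The letters of an interferon response element, GAAA followed after any NN by a second GAAA, were in 3.4% of all windows and in none of these 7. A match of letters is a description of the sequence, and binding was not measured.

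The arrays read 45281 probes each, and 19462 of them, detected on at least 4 of the 8 arrays, were tested. Between 17817 and 19773 probes were detected per array with 3M-052 and between 19094 and 20315 with vehicle, and the number of arrays limits the precision. In the fit over all tested probes (limma, adjusted p under 0.05), 546 probes were higher and 446 lower with 3M-052. With median centering of the arrays as the only scaling, the split was 570 higher and 298 lower. Arrays of the same replicate number deviated together, and with that number as a block 1232 probes were higher and 1499 lower. The B cell list stood at a mean log2 intensity of 10.2 to 10.5 and the T cell list at 10.2 to 11.5 on all arrays, and all 9 and all 10 of their measured genes were detected on every array. Vehicle replicate 3 stood apart in melanocyte genes, with a list mean of 9.84 against 4.84 to 6.14 on the other 7 arrays.

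None of the 7 measured genes passed the threshold in the unpaired fit, where 5.1% of all tested probes did. Of the 7, 5 were lower and 2 higher with 3M-052, with a median log2 fold change of -0.47 against -0.01 over all tested probes. The lower genes were Clec9a, Batf3, Ly75, Zbtb46 and Clec10a, at log2 fold changes between -0.73 and -0.46, and the higher ones were Xcr1 at 0.45 and Sirpa at 0.47. At an unadjusted limma p under 0.05 there were 2, Clec9a and Sirpa, where 20.4% of all probes were. The unpaired test that the methods name called none after adjustment. In the fit blocked on replicate number, 1 gene, Clec9a, was called lower, where 7.7% of all probes were, and 1, Sirpa, higher, where 6.33% were (14% in either direction). By the brightest probe the groups overlapped in all 7 genes, whereas they did not for 5.57% of all probes, higher, and 7.1%, lower, with 3M-052.

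**Figure D1:**
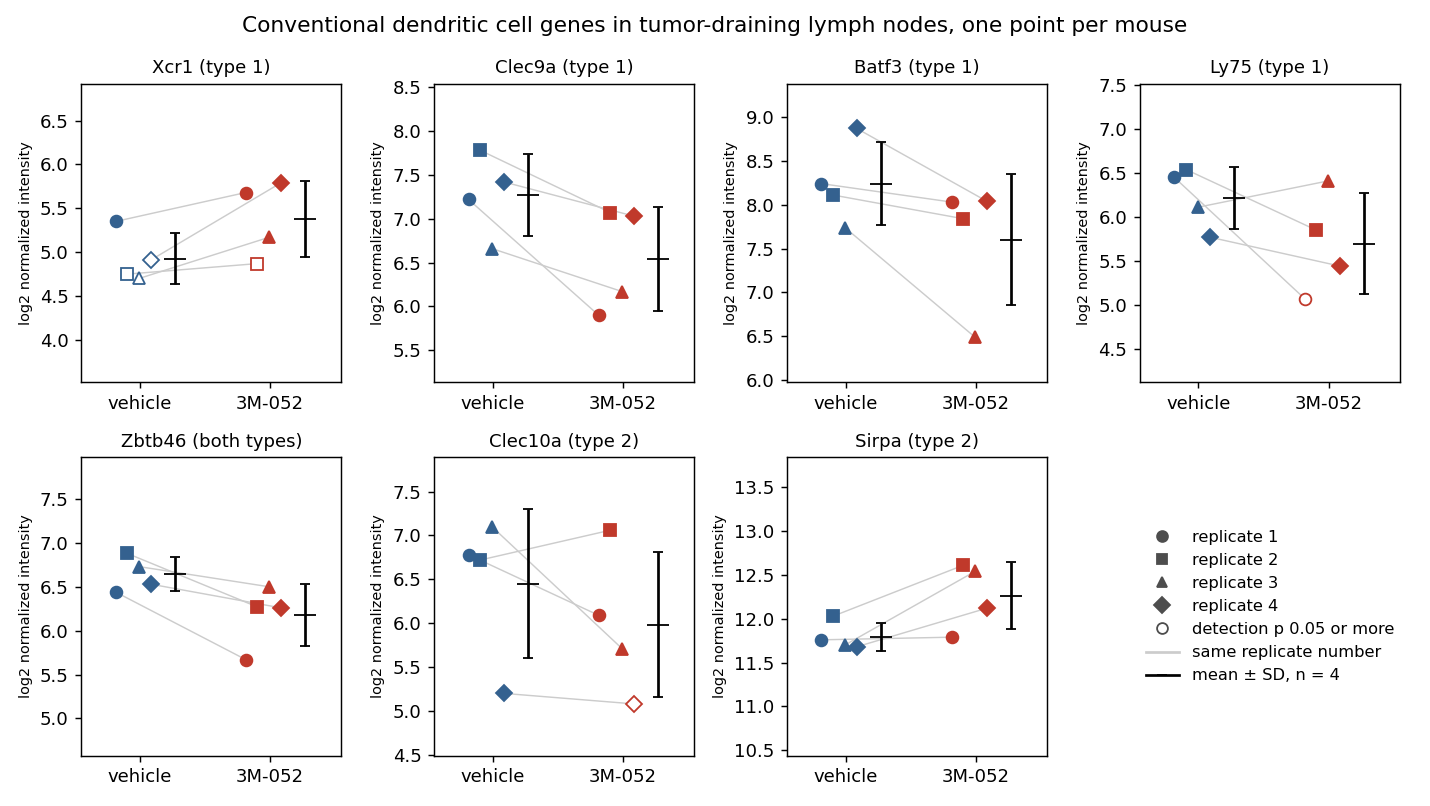
Normalized log2 intensity (y axis) of the brightest tested probe of the 7 measured genes on each of the 4 vehicle and 4 3M-052 arrays; points are single mice, bars are group means and lines join arrays of the same replicate number. The lines of Clec9a, Batf3 and Zbtb46 all fall and those of Xcr1 and Sirpa all rise, while the groups overlap in every panel. Open points were not detected, and Xcr1 was detected on only 1 vehicle array and on 3 arrays with 3M-052.

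Clec9a encodes a receptor by which type 1 cells sense actin exposed on dead cells. Its raw intensity was 210, 295, 156 and 158 on vehicle arrays 1 to 4 and 100, 206, 124 and 128 on 3M-052 arrays 1 to 4, and it was detected on all 8 arrays. Each 3M-052 array lay below the vehicle array of its number, but 3M-052 array 2 lay above vehicle arrays 3 and 4, so the groups overlapped. After normalization the mean was 6.54 ± 0.59 with 3M-052 and 7.27 ± 0.47 with vehicle (log2, SD, n = 4 each). This was a log2 fold change of -0.73 (SE 0.319, 95% interval -1.43 to -0.03), with a limma adjusted p of 0.224 and an exact permutation p of 0.14. With the replicate block the adjusted p was 0.0348 (SE 0.191). In fits chosen after the data had been seen, that block call was lost without the number 1 arrays (adjusted p = 0.14) and without the number 2 arrays (0.11). It remained without number 3 (0.037) and number 4 (0.049). A second probe of Clec9a was detected on 3 of the 8 arrays and was not tested.

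Xcr1 encodes the receptor for the chemokine XCL1, which CD8+ T cells and NK cells release. Its probe was dim, at raw intensities of 87.3, 68.1, 65.6 and 68.0 with vehicle and 93.1, 76.9, 81.4 and 83.0 with 3M-052, arrays 1 to 4 in order. It was detected on 3 of the 4 arrays with 3M-052 and on 1 of 4 with vehicle. After normalization the level was higher with 3M-052 in all 4 pairs, by 0.13 to 0.88 on the log2 scale. Only the number 1 pair had both arrays detected. In the number 2 pair neither array was, and in pairs 3 and 4 the vehicle array was not, so these differences rest largely on background. The probe just met the filter of 4 detected arrays, and did so mainly through the 3M-052 arrays, so the fit and its p-values carry this limit. The groups overlapped, as vehicle arrays 1 and 4, at 5.35 and 4.91 after normalization, both lay above 3M-052 array 2, at 4.87. The fit gave a log2 fold change of 0.45 (SE 0.246, 95% interval -0.09 to 0.99; limma adjusted p = 0.339, exact permutation p = 0.2), and with the block the adjusted p was 0.119. The authors' own normalized table gave 0.12. Xcl1, the gene of its ligand, had a log2 fold change of 0.35 (limma adjusted p = 0.62).

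Batf3 encodes the factor on which type 1 cells depend. Raw intensities of its brighter probe were 375, 356, 281 and 362 with vehicle and 291, 320, 145 and 215 with 3M-052. The value was lower within all 4 pairs, the differences being -0.21 to -1.25 on the log2 scale, and 3M-052 array 3 was far below the other arrays. The log2 fold change was -0.64 (SE 0.353, 95% interval -1.41 to 0.13), with a limma adjusted p of 0.347 and an exact permutation p of 0.23. It was -0.27 without that array, and -0.34 with weights for array quality. Its second tested probe followed the first closely (r = 0.99 over the 8 arrays, which both probes share) and gave -0.40 (limma adjusted p = 0.485). With the block the adjusted p was 0.0596 and 0.211 for the brighter and the dimmer probe.

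Ly75 encodes DEC-205, an endocytic receptor on type 1 cells and, at a lower level, on B cells. Its raw intensity was 141, 154, 120 and 83.3 with vehicle and 78.1, 114, 139 and 76.6 with 3M-052, and 3M-052 array 1 was not detected. It was lower in 3 of 4 pairs and higher in the number 3 pair, where the difference was 0.30 on the log2 scale. The difference in log2 was -0.52 (SE 0.294, 95% interval -1.17 to 0.12; limma adjusted p = 0.354, exact permutation p = 0.17), and -0.32 without 3M-052 array 1.

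Zbtb46 encodes a transcription factor that sets conventional dendritic cells apart from other myeloid cells. Raw intensities were 140, 183, 162 and 107 with vehicle and 92.8, 137, 146 and 95 with 3M-052. It was lower in all 4 pairs, the differences being -0.23 to -0.77 on the log2 scale, while only the highest 3M-052 value after normalization, 6.5, exceeded the lowest vehicle value, 6.44. Its log2 fold change was -0.47 (SE 0.222, 95% interval -0.96 to 0.01), with a limma adjusted p of 0.261 and an exact permutation p of 0.057. It was -0.3 without 3M-052 array 1. A further 2 probes of Zbtb46 were detected on 2 and on 1 of the 8 arrays and were not tested.

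Clec10a encodes a lectin that binds galactose-type sugars. Its raw intensity was 167, 169, 195 and 72.7 with vehicle and 107, 205, 99.7 and 71.4 with 3M-052, where array 4 was not detected. The spread within each group exceeded the difference between them: the mean was 5.99 ± 0.83 with 3M-052 and 6.45 ± 0.85 with vehicle (log2, SD, n = 4 each). The log2 fold change was -0.46 (SE 0.461, 95% interval -1.47 to 0.55; limma adjusted p = 0.633, exact permutation p = 0.43), and between -0.88, without vehicle array 4, and -0.16, without 3M-052 array 4, when single arrays were left out. It was -0.82 without 3M-052 array 2 and -0.25 without vehicle array 3. Fat cell genes moved with it (r = 0.67 over the 8 arrays), and plasmacytoid dendritic cell genes moved against it (r = -0.66). Other genes had larger values with other lists, such as Batf3 with blood endothelium (0.85). The fat cell list mean was 8.98, 9.86, 10.1 and 6.52 with vehicle and 7.24, 7.79, 5.50 and 7.92 with 3M-052. None of its 6 measured genes passed the threshold, and 1 of 6 was detected on all arrays. With that list mean as a covariate the log2 fold change of Clec10a turned to 0.21 (adjusted p = 0.93).

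Sirpa encodes a receptor for CD47 that restrains phagocytosis and is found on type 2 cells and little on type 1 cells. Raw intensities of its brighter probe were 3620, 4020, 3360 and 2390 with vehicle and 4200, 7380, 6900 and 3680 with 3M-052. After normalization the 3M-052 values were 11.79, 12.61, 12.54 and 12.12 and those with vehicle 11.76, 12.03, 11.70 and 11.68, so that 3M-052 array 1 fell within the vehicle range. The log2 fold change was 0.47 (SE 0.182, 95% interval 0.07 to 0.87), with a limma adjusted p of 0.167 and an exact permutation p of 0.057.

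With the replicate block the adjusted p of Sirpa was 0.0488, and it was 0.041 without the number 1 arrays and 0.17, 0.089 and 0.12 without numbers 2, 3 and 4, in fits chosen after the data had been seen. Median centering of the arrays gave a log2 fold change of 0.76 with an adjusted p of 0.022 in the unpaired fit. A second probe read 164, 198, 143 and 119 with vehicle and 170, 251, 415 and 137 with 3M-052 as raw intensity. After normalization its groups did not overlap, as for 12.7% of all tested probes. It gave 0.72 (SE 0.265, limma adjusted p = 0.15), and its exact permutation p of 0.029 is the smallest that 4 against 4 arrays allow. With the block the adjusted p of this second probe was 0.087, so the block call held for the brighter probe only. Cd47, the gene of the ligand, had a log2 fold change of -0.19 (limma adjusted p = 0.43).

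**Figure D2:**
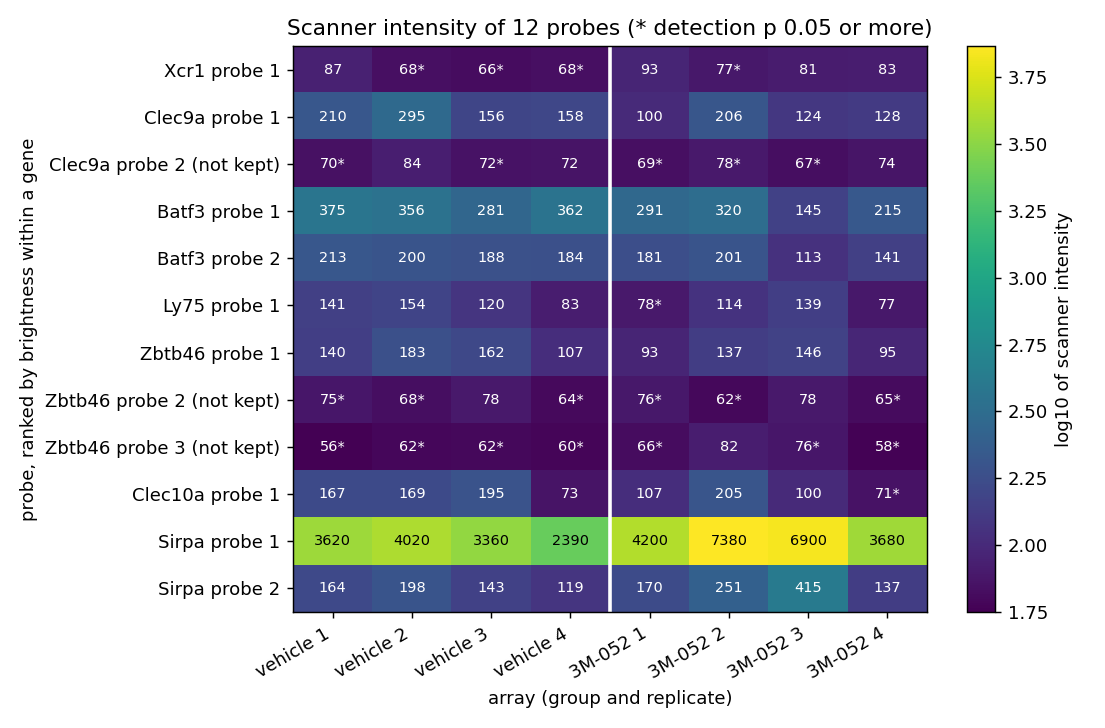
Raw probe intensity before any normalization of the 12 named probes of the 7 genes (y axis) on the 8 arrays (x axis). Each cell holds the intensity, its color shows the log10, and an asterisk marks a detection p of 0.05 or more. Xcr1 was detected on 1 vehicle array and on 3 arrays with 3M-052, and Ly75 and Clec10a each missed detection on 1 array with 3M-052.

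Markers of the other cells that make Sirpa were read beside it. The monocyte list stood at 8.83 to 9.39 with 3M-052 and 8.54 to 8.65 with vehicle, without overlap. Of its 7 measured genes, 2 passed the threshold, both higher, where 2.81% of all tested probes were called higher. They were Fcgr1 at a log2 fold change of 1.96 (SE 0.24) and Ly6c1, which endothelium also makes, at 1.53 (SE 0.14). The list of type I interferon response genes was at 9.05 to 10 with 3M-052 against 7.34 to 7.93 with vehicle, with 13 of 17 genes called higher, beside the same 2.81% of all tested probes. The other 5 monocyte genes did not pass: 4 of them were below 0, F13a1 at -1.22, Fn1 at -0.81, Cd14 at -0.18 and Lyz2 at -0.01, Chil3 was at 1.55, and the median of the list was -0.01. The macrophage list overlapped, at 8.86 to 9.69 against 8.93 to 9.47, with none of 11 genes called, and so did the neutrophil list, at 5.96 to 7.99 against 6.26 to 6.84, with none of 8 called. The part of these cells and of the interferon genes in the level of Sirpa was not tested.

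Beside the type 1 genes, lists of T cells and of mature, migratory dendritic cells held called genes, where 2.29% of all tested probes were called lower. The T cell list was at 10.2 to 10.6 with 3M-052 and 11.1 to 11.5 with vehicle, with 7 of 10 genes lower (Cd3e at a log2 fold change of -0.89, SE 0.13). The mature dendritic cell list was at 9.73 to 10 against 10.4 to 10.5, with 5 of 13 genes lower, among them Fscn1, an actin bundler of migrating dendritic cells, at -1.49 (SE 0.18). The blood endothelium list was at 7.86 to 8.84 against 8.65 to 9.21, with 3 of 9 genes lower. Erythroid genes were at 8.39 to 9.3 against 10.2 to 10.4, with 4 of 5 lower. The B cell list had none of 9 genes called. Their part in the levels of Clec9a, Batf3, Ly75 and Zbtb46 was not tested.

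**Figure D3:**
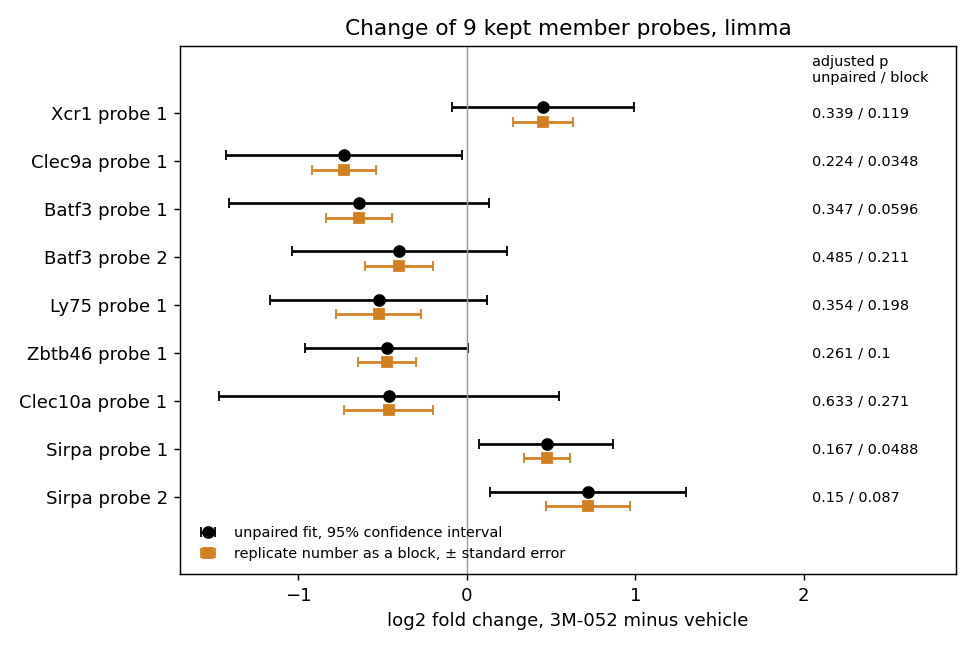
Log2 fold change of 3M-052 against vehicle (x axis) for the 9 tested probes of the 7 genes, with 95% intervals from limma; the adjusted p of the unpaired fit and of the fit with the replicate block stands beside each. The intervals of Clec9a and of both Sirpa probes leave out 0 before adjustment, and those of the other 6 probes include it.

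Set side by side, the mean of the 4 type 1 genes was lower with 3M-052 and that of the 2 type 2 genes was not. The 2 type 2 genes went opposite ways and cancelled in their mean, Clec10a at a log2 fold change of -0.46 and Sirpa at 0.47, neither called in the unpaired fit. Type 1 minus type 2 differed by less than its spread. For each array, the 4 type 1 genes and the 2 type 2 genes were averaged after each gene had been centred on its mean over the 8 arrays. The type 1 mean was 0.33, 0.31, -0.18 and 0.26 with vehicle and -0.31, -0.07, -0.42 and 0.09 with 3M-052. The type 2 mean was 0.15, 0.25, 0.28 and -0.69 with vehicle and -0.18, 0.71, 0.00 and -0.52 with 3M-052. In both scores the groups overlapped, though the type 1 mean was lower with 3M-052 in all 4 pairs, the differences being -0.64, -0.38, -0.24 and -0.17. The type 2 mean was lower in 2 pairs and higher in 2, and the number 4 arrays were the lowest of their group in the type 2 score.

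The type 1 mean differed by -0.36 on the log2 scale (SDs 0.23 with 3M-052 and 0.24 with vehicle) and the type 2 mean by 0.01 (0.52 and 0.46). Type 1 minus type 2 was -0.18 ± 0.59 with 3M-052 and 0.18 ± 0.58 with vehicle (SD, n = 4 each), a difference of -0.36, lower in 3 of 4 pairs. Xcr1 enters this mean although its probe was not detected on 3 of the 4 vehicle arrays. Without it, as a choice made after the data had been seen, the type 1 mean differed by -0.63 (SDs 0.31 and 0.28, lower in 4 of 4 pairs) and type 1 minus type 2 by -0.64 (0.51 and 0.61). Against Sirpa alone the type 1 mean was -0.42 ± 0.45 with 3M-052 and 0.42 ± 0.23 with vehicle (SD), a difference of -0.83 that was lower in all 4 pairs. Against Clec10a alone the difference was 0.10 (SDs 0.89 and 0.97). Scores over chosen genes were given no test.

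**Figure D4:**
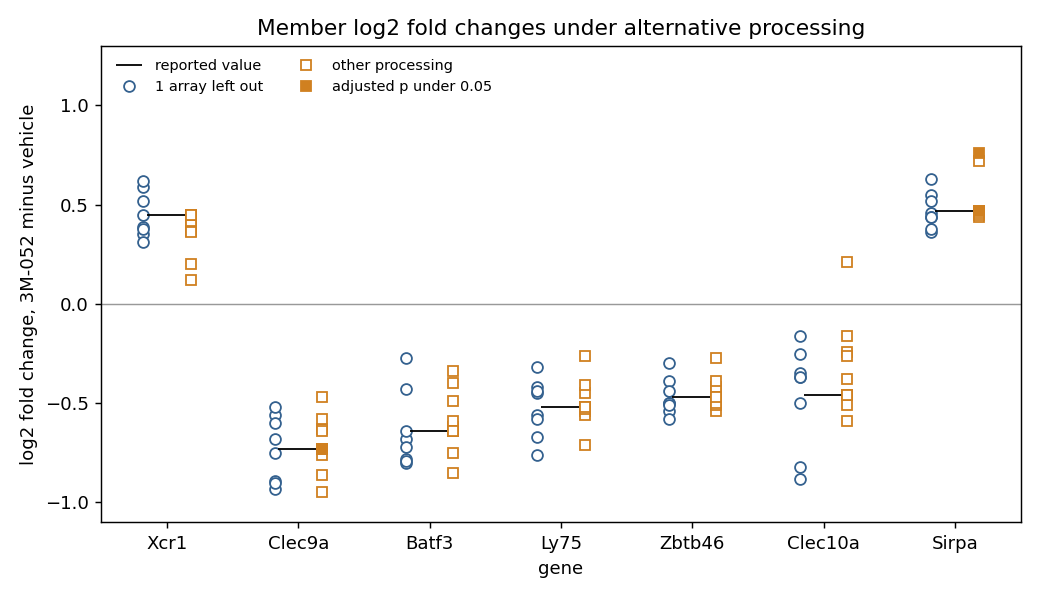
Log2 fold change (y axis) of the 7 genes when 1 array was left out (circles) and under other processing (squares), beside the reported value (line); filled symbols have an adjusted p under 0.05. Clec9a is filled once and Sirpa at 2 settings, no other gene is filled, and Clec10a is above 0 at 1 setting.

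The genes also differed in which arrays carried them. Over the 8 arrays Ly75 and Zbtb46 moved together (r = 0.83, and 0.75 after removal of the group means), whereas Xcr1 and Zbtb46 moved apart (r = -0.75, and -0.60). Batf3 and Clec9a correlated at 0.59 (0.41 after removal of the group means), and Batf3 and Ly75 at -0.30 (-0.79). These values are descriptions over 8 arrays that all genes share.

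Among the named tested probes, Inpp5k, Cyp27a1 and Synm had the pattern most like that of Clec9a over the 8 arrays (r of 0.979 to 0.989). Btk, Ralgps2 and Crebrf were nearest to Sirpa (0.957 to 0.982), and Foxk2, Slc25a20 and Arhgef1 to Batf3 (0.985 to 0.992). For Zbtb46 they were Arhgef11, Pkp4 and Traf4 (0.993 to 0.994), and for Ly75 Sav1, Eps15l1 and Mlst8 (0.983 to 0.992). Clec10a was followed by the mitochondrial gene COX2 and by Prrc2c and Vapb (0.970 to 0.980), and the dim Xcr1 least closely, by Eif4e2, Tssc4 and Pvt1 (0.935 to 0.944). None of these 21 genes passed the threshold between the groups, and none of them is another of the 9 genes. They were picked from 16414 named tested probes by likeness to uncalled genes on these same arrays. Neither the closeness nor the lack of calls therefore adds support.

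Other genes of type 1 cells gave 1 call. Of 18 listed, 10 were measured, with 0 higher and 1 lower and a median log2 fold change of -0.42, against 2.81% higher and 2.29% lower over all tested probes. The lower gene was Itgae, the integrin CD103 of type 1 cells and of some CD8+ T cells. It was at 10.77, 10.41, 10.41 and 9.86 with vehicle and 8.84, 9.56, 8.88 and 8.95 with 3M-052 (log2 intensity), without overlap. Its log2 fold change was -1.31 (SE 0.22, limma adjusted p = 0.0065). The T cell list was also lower with 3M-052, with 7 of 10 genes called, and its part in Itgae was not tested.

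Irf8, the factor that commits precursors to type 1 cells and that B cells also express, did not pass in the unpaired fit and had higher values with 3M-052. It was at 10.41, 10.54, 10.37 and 9.38 with vehicle and 10.95, 10.87, 11.49 and 10.07 with 3M-052, higher within every pair. Its difference in log2 was 0.67 (SE 0.31, limma adjusted p = 0.25), and with the replicate block the adjusted p was 0.015. With the block Id2, a repressor needed for type 1 cells and for innate lymphocytes, was also called, at a log2 fold change of -1.18 (adjusted p 0.0034 with the block and 0.13 without).

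The type 2 genes moved in both directions. Of 18 listed, 12 were measured, with 3 higher and 2 lower, beside the same 2.81% and 2.29% of all probes, and a median log2 fold change of -0.05. The higher genes were Sirpb1a, a relative of Sirpa that signals in myeloid cells, at 1.59 (SE 0.33, limma adjusted p = 0.02), Clec7a, the beta-glucan receptor Dectin-1 of myeloid cells, at 1.22 (SE 0.22, 0.0086), and Irf4, the factor of type 2 cells and of plasma cells, at 0.73 (SE 0.18, 0.04). The lower genes were Esam, an adhesion molecule of Notch-dependent type 2 cells and of endothelium, at -0.89 (SE 0.17, 0.011), and Relb, an NF-κB subunit of type 2 and of mature dendritic cells, at -0.67 (SE 0.14, 0.019).

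In all 5 genes the groups did not overlap, as in 12.7% of all probes. The 5 were picked by the test on these same arrays, so this adds no support. Clec7a, for example, was at 7.56, 7.24, 6.65 and 7.02 with vehicle and 8.18, 8.58, 8.18 and 8.43 with 3M-052 (log2 intensity). Esam was at 10.66, 11.19, 10.82 and 10.96 with vehicle and 9.76, 10.30, 9.89 and 10.10 with 3M-052. Of the 10 measured genes of plasma cells, which also make Irf4, 9 were called higher, where 2.81% of all tested probes were. Their list mean was 8.39 to 8.82 with vehicle and 9.53 to 10.2 with 3M-052, and their part in Irf4 was not tested. The call of Irf4 was lost when any single array was left out (adjusted p of 0.051 to 0.14), while its log2 fold change stayed at 0.58 to 0.79. With the block, Mgl2, a lectin closely related to Clec10a, was called as well, at a log2 fold change of -0.86 (adjusted p 0.045 with the block and 0.17 without).

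Genes shared by both types gave 1 call among 13 measured of 16, with a median log2 fold change of -0.04, where 5.1% of all probes were called in either direction. Kit, the stem cell factor receptor of dendritic cell precursors and of mast cells, was lower, at a log2 fold change of -1 (SE 0.23, limma adjusted p = 0.031). Ligands and partners of the 9 genes gave 1 call among 13 measured of 14, with a median of 0.01. Neither count stands far from that share. Batf2, which can stand in for Batf3 in type 1 cells, was at 5.43, 5.6, 5.12 and 6.19 with vehicle and 6.63, 6.24, 6.53 and 6.86 with 3M-052, without overlap. Its log2 fold change was 0.98 (SE 0.25, limma adjusted p = 0.047). Batf, another member of the family, had a log2 fold change of 0.78 (adjusted p 0.025 with the block and 0.11 without).

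Flt3l, the gene of the growth factor that sustains these cells through FLT3, had a log2 fold change of 0.00 (95% interval -0.66 to 0.67). Several of these calls lay near the threshold and were lost with fewer arrays. Batf2 was lost without any one of 6 arrays, all but 3M-052 array 2 and vehicle array 4 (adjusted p of 0.076 to 0.14). Over all 8 omissions its log2 fold change stayed at 0.82 to 1.18. Kit was lost without 3M-052 arrays 1 or 3 or vehicle arrays 1, 2 or 3 (0.063 to 0.11), with a log2 fold change between -1.19 and -0.82 over all omissions. Relb was lost without 3M-052 array 1 or vehicle arrays 2 or 3 (0.055 to 0.084), at -0.74 to -0.62 over all omissions. Sirpb1a was lost without 3M-052 array 1 or vehicle arrays 1 or 2 (0.052 to 0.08), at 1.26 to 1.81. Itgae, Clec7a and Esam kept their calls without any single array. By the unpaired test that the methods name, these 3 calls were lost (adjusted p of 0.069 to 0.078), while that of Relb remained (0.04). With the fat cell list mean as a covariate in limma, the calls of these 3 genes and of Relb were all lost (adjusted p of 0.076 to 0.18), with directions unchanged.

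**Figure D5:**
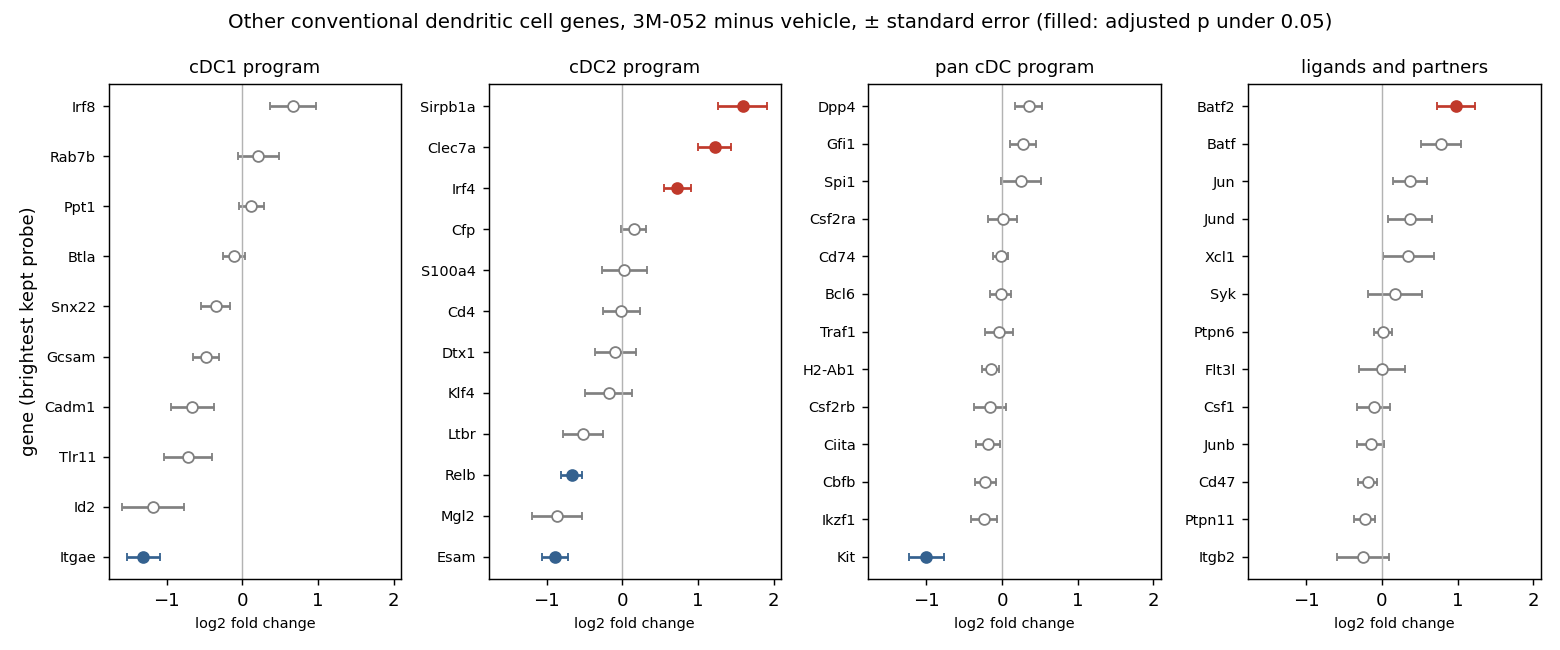
Log2 fold change of 3M-052 against vehicle (x axis) of every measured gene in the type 1, type 2, shared and ligand lists; filled points have a limma adjusted p under 0.05. The filled points are Itgae among type 1 genes, Sirpb1a, Clec7a, Irf4, Esam and Relb among type 2 genes, Kit among shared genes and Batf2 among ligands and partners.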

How the data were processed

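RNA of 8 lymph nodes was amplified, labeled with biotin and read on Illumina Ref-6 mouse bead arrays. The authors deposited a table of probe intensity values with a detection p-value per probe and array, summarized with GenomeStudio per the submitters' processing notes (version not given in the sources used here). A second deposited table holds intensity values of 21765 probes after a normalization by the authors whose method the sources used here do not state. Its scale was taken as linear, its direction is that of the intensity, its medians were 115.1 to 126.2, and each column correlated best with its own array (r of 0.984 or more). It served for naming and as an alternative.

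The function neqc (limma 3.58.1, R 4.3.3; offset 16) used the detection p-values to remove background from the first table, then applied quantile normalization and log2. A probe was kept where its detection p was under 0.05 on 4 or more of all 8 arrays. The groups were compared without pairing by lmFit and eBayes with a variance trend, with Benjamini-Hochberg adjustment over all 19462 kept probes and a threshold of 0.05, two-sided. Single probes were also compared by a two-sided exact permutation test over 70 splits. Gene names come from the platform annotation, updated by gene identifier to GRCm38.p6 (18196 of 18216 probes with 1 gene matched). The brightest kept probe stands for a gene. Members and lists were chosen with earlier results of these data known.

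The named genes are the 9 members, list genes past the threshold (up to 6 per direction), the 3 most correlated genes of each member, and Flt3l, Xcl1, Cd47, Irf8 and Irf4. Id2, Mgl2 and Batf passed only with the replicate block and were named after their values were seen. After group means were subtracted, the arrays of numbers 1, 2, 3 and 4 correlated across groups at 0.19, 0.43, 0.25 and 0.57, and all 8 arrays correlated best with their own number. The numbers thus pair the arrays, by the data and not by a stated design. The study's legends give 4 mice per group, and p-values measure the spread between these arrays.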

Additional observations from a re-analysis of the deposited data

Results flagged for a closer look

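A sample far from the others of its group of 4 was found in 3 of 24 groups of values examined, where chance gives about 1 in 20 for independent groups. These groups share arrays, some are probes of the same gene, and the scores are made of the same genes. An excess over chance can thus not be read from the count. Batf3 on 3M-052 replicate 3 was at a log2 intensity of 6.49, and its gap to the nearest array was 0.871 of the group's range. In the mean deviation of the type 1 genes, vehicle replicate 3 stood at -0.18, below the other vehicle arrays, with a gap of 0.864 of the range. In the mean deviation of the type 2 genes, vehicle replicate 4 stood at -0.69, with a gap of 0.866 of the range. Vehicle replicate 3 is also the array with the highest melanocyte list mean, 9.84. The number 4 arrays had the lowest mean intensity, 306.1 with vehicle and 330.7 with 3M-052, against 397.7 to 461 on the others. The part of the melanocyte genes or of the array intensity in these values was not tested.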

How the results depend on the processing

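No alternative changed the direction of 6 of the 7 genes, and Clec10a turned to 0.21 with fat transcripts as a covariate. None was called when 1 array was left out (0 to 0 genes in either direction). Median centering gave 1 gene called higher, and the replicate block 1 higher and 1 lower. The block, whose numbers pair the arrays, changed no other call among the 7 genes. Over all probes, higher and lower calls were 838 and 869 with array weights, 1232 and 1499 with the replicate block, 118 and 98 by the methods' t-test, 168 and 31 with the fat covariate and 276 and 115 with a melanocyte covariate. Without a filter on dim probes 255 were lower, and leaving out an array gave 283 to 670 higher and 118 to 683 lower. In the other dendritic cell lists, 4 genes higher became 2 without the filter and 0 by the t-test or with either covariate, and 4 lower became 1 by the t-test and 0 with the fat covariate. Leaving out an array gave 1 to 3 higher and 2 to 4 lower. The difference of type 1 minus type 2 genes ranged from -0.63 to -0.11 when an array was left out, and was -0.64 without Xcr1. A filter on probes detected on all 8 arrays leaves no value for Xcr1, Ly75 and Clec10a. The cause of these changes was not tested. Xcr1, the dimmest by detection, is limited most by signal over background, with detection on 4 of 8 arrays.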
